A study of Mus musculus with 4 samples.

Results

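Msx1, Msx2 and Msx3 are the members of the Msx family of homeobox genes in the mouse, and their expression was read in embryonic stem (ES) cells that carry a Nup98-HoxA9 transgene, in ES cells that carry a HoxA9-Ct transgene and in the parental ES cells. The family was chosen on these data, because the Msx3 signal was above parental ES in all 3 transgenic lines. The Msx3 values are therefore given as a description with no test. The 3 genes were found by the RefSeq transcript that the array annotation gives for each probe, and they are 3 of the 20257 genes named in this way. Each is read by 1 probe with 1 spot on every array.
Nup98-HoxA9 is a leukemogenic fusion of the N-terminus of the human nucleoporin Nup98, which holds FG repeats, to the C-terminus of HoxA9, which holds the homeodomain. HoxA9-Ct is that C-terminus alone, without Nup98. Parental ES cells are the EB3 line, and the other lines were made from EB3 cells with Tol2 transposon vectors and selected with hygromycin B. Both Nup98-HoxA9 ES lines (clone #1 and clone #9) and the HoxA9-Ct ES line were each picked as a colony, and all lines were grown on gelatin with leukemia inhibitory factor (LIF). One 1-colour array was hybridised for each line, so that Nup98-HoxA9 ES is a group of 2 arrays, and parental ES and HoxA9-Ct ES are 1 array each. None of the 4 arrays holds cells with an empty vector, so that a transgene and the steps of transfection, selection and cloning cannot be told apart in the comparisons with parental ES.

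Msx proteins are homeodomain transcription factors, known mainly as repressors of transcription, and belong to the NK-like class of homeobox genes rather than to the Hox clusters. Msx1 and Msx2 are well-known target genes of bone morphogenetic protein (BMP) signaling: a BMP ligand binds a pair of type I and type II receptors, the receptors phosphorylate Smad1, Smad5 or Smad9, and these enter the nucleus together with Smad4. Both genes act in the neural crest, limb, tooth and skull. Msx3 is known from the dorsal part of the embryonic neural tube, and is not a known marker of ES cells.

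The sequences before the start of the 3 genes are printed because the text compares their signals and the transgenes carry a homeodomain. They are the 250 bases upstream of each start in RefSeq (build GRCm38.p6), all on the minus strand and 5′ to 3′. The Msx1 window is chr5:37824586-37824835, the Msx2 window chr13:53472781-53473030 and the Msx3 window chr7:140049089-140049338. Capitals mark each match to TTTAT (the core bound by posterior Hox proteins such as HoxA9), TAATTG (the core bound by Msx proteins) or TATAAA (the TATA box), searched on both strands.
Msx1: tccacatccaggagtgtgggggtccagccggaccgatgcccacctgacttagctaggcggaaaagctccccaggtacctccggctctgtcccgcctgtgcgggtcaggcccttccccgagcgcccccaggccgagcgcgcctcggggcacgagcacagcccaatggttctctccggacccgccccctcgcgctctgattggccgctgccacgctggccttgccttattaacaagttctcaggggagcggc
Msx2: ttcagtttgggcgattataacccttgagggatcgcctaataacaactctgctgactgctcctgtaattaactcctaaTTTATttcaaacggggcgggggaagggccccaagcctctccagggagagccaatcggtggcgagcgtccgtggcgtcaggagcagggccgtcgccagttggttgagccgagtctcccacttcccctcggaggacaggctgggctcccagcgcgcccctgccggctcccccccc
Msx3: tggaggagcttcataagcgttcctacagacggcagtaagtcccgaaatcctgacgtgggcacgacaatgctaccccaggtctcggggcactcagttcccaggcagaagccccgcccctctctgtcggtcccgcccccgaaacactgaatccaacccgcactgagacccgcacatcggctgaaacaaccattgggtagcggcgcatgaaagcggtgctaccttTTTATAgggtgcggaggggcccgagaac
The Msx2 window holds 1 match to TTTAT, whose first base lies 173 bases before the start. The Msx3 window also holds 1 match to TTTAT, at 28 bases before the start, and there it overlaps a match to TATAAA on the opposite strand, so that the capitals mark both. No match was found in the Msx1 window, and TAATTG was found in none of the 3. Over the 32851 promoters of the same length in the table, 37.3% hold TTTAT, 12.4% hold TATAAA and 7.17% hold TAATTG on either strand. The windows of Msx1, Msx2 and Msx3 hold 20, 16 and 18 CpG dinucleotides, against a median of 6 over all promoters. Their GC contents are 68.0%, 61.6% and 60.0%, against a median of 52.4%. A match to letters is a description of the sequence, and binding was not read from it.

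The Msx3 signal was at background in parental ES cells and far above it in all 3 transgenic lines, with the highest value in HoxA9-Ct ES. Its processed intensity, which is the spot brightness after subtraction of the background, was 7.26 in parental ES, 2467 in HoxA9-Ct ES, 269 in clone #1 and 377 in clone #9. The parental value was not well above background by the flag of the extraction software, and the other 3 were. The error that the software gives for each spot was 3.32 in parental ES, 247 in HoxA9-Ct ES, 27.1 in clone #1 and 37.8 in clone #9. The 4 values differ from each other by more than these errors. The pixels of the spot show the same order. The median pixel over the median pixel of the local background was 33 over 17 in parental ES, 2170.5 over 16 in HoxA9-Ct ES, 266 over 17 in clone #1 and 349 over 18 in clone #9. None of the 4 spots was marked as an outlier or as saturated.

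**Figure D1:**
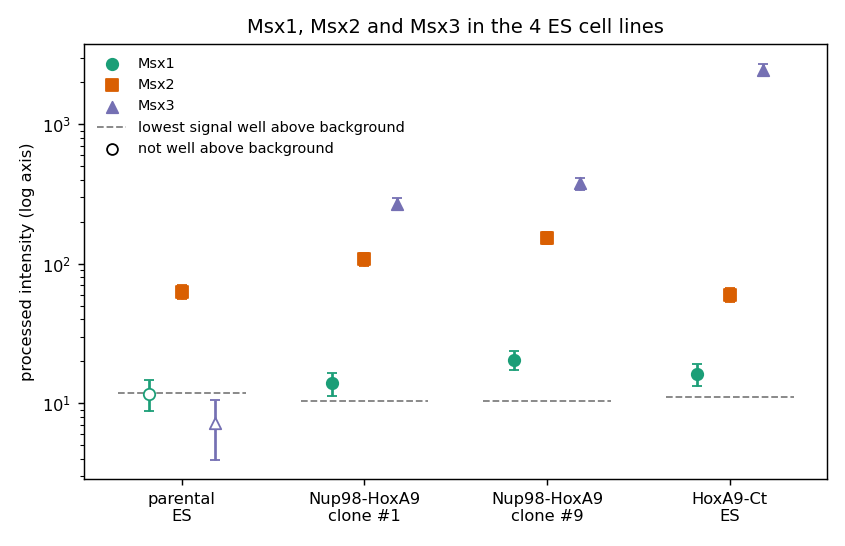
Processed intensity (log axis) of the probes of Msx1, Msx2 and Msx3 on the array of each line, with the spot error of the extraction software. Open symbols are not well above background, and dashed lines mark the dimmest signal called well above background on that array. Msx3 goes from 7.26 in parental ES to 269 and 377 in the Nup98-HoxA9 clones and 2467 in HoxA9-Ct ES, whereas Msx2 stays between 60.1 and 154 and Msx1 between 11.7 and 20.5.

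With the 75th percentile of each array as the reference, the Msx3 level (log2) was -4.98 in parental ES, 3.56 in HoxA9-Ct ES, 0.28 in clone #1 and 0.57 in clone #9. Because the parental spot was not well above background, each fold was taken against the limit of the parental array, at -4.28. This limit is the dimmest signal that the software still called well above background on that array. It is not a strict limit of detection, as probes not well above background in parental ES could lie above it (Lmx1a at -3.89, Lhx2 at -3.97). Folds given as lower bounds or as at least a value, here and further on, are relative to such limits alone. Relative to parental ES, Msx3 was on this scale at least 229-fold higher in HoxA9-Ct ES, at least 23.5-fold in clone #1 and at least 28.9-fold in clone #9. These bounds apply to the processed signal alone, and 2 other treatments of the background gave ratios below them (normexp and the median pixel less background). The clones lay 0.30 apart (log2) and the mean of the clones was 3.13 below HoxA9-Ct ES, where every line was well above background. As the whole cell population was read, more RNA per cell and more cells with Msx3 RNA cannot be told apart.
The size of the ratio depends on how the background of the dim parental spot is treated: with the normexp background correction the log2 ratio was 2.25 for the mean of the clones and 5.08 for HoxA9-Ct ES, against 5.41 and 8.54 here. Msx3 was above parental ES in all 3 transgenic lines under each of the 9 alternative processings. Since Msx3 was chosen for this order, that count describes the choice and supports nothing. Some of the 9 leave its values as they are, because they change other probes or the test alone. Probes with 10 spots at about the same level (within 0.5 on the log2 scale) had a median SD between spots of 0.05 in HoxA9-Ct ES, 0.07 in clone #1 and 0.06 in clone #9. At the parental level this SD was 0.63. These SDs describe the spots of 1 array and not the spread between cultures.

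Msx2 RNA was detected in all 4 lines, at a higher level in both Nup98-HoxA9 clones than in the other lines. Its processed intensity was 63.1 in parental ES, 60.1 in HoxA9-Ct ES, 107 in clone #1 and 154 in clone #9, and every value was well above background. The parental and HoxA9-Ct values lie side by side, within their spot errors of 6.97 and 6.67, and both clones lie above them. In log2 ratios to parental ES, this was 0.06 in HoxA9-Ct ES, 0.81 in clone #1 and 1.14 in clone #9.
The mean of the clones was 0.98 above parental ES (standard error 0.56, 95% interval -0.11 to 2.07, 1.97-fold), which limma did not call (adjusted p = 1.00). The mean of the clones was 0.92 above HoxA9-Ct ES (standard error 0.56, 95% interval -0.17 to 2.01) and was not called either in limma (adjusted p = 1.00). Between HoxA9-Ct ES and parental ES the difference was 0.06 (standard error 0.64, 95% interval -1.20 to 1.32, limma adjusted p = 1.00), and when the arrays were scaled by their medians it had the opposite sign, at -0.0056. Each interval includes 0 and also a difference of more than 2-fold, so that neither a change nor its absence is shown. The median difference over all probes was -0.18 between the clones and parental ES, -0.21 between the clones and HoxA9-Ct ES and 0.06 between HoxA9-Ct ES and parental ES.

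Msx1 was close to background in every line. Its processed intensity was 11.7 in parental ES, 16.1 in HoxA9-Ct ES, 13.9 in clone #1 and 20.5 in clone #9, with spot errors between 2.65 and 3.08. The parental value was not well above background and just under the lowest signal that was (11.8), and the transgenic values were above the limits of their arrays (11.1 in HoxA9-Ct ES and 10.3 in both clones). The median pixel of the Msx1 spot was 35.5 in parental ES, 41 in HoxA9-Ct ES, 39 in clone #1 and 46 in clone #9, over local backgrounds between 17 and 18. Against the parental limit, the Msx1 folds were at least 1.21 in clone #1, at least 1.57 in clone #9 and at least 1.496 in HoxA9-Ct ES on this scale. They were smaller with the normexp background correction, at a log2 difference from parental ES of 0.07 for the mean of the clones and 0.21 for HoxA9-Ct ES.
In limma, the difference between the clones and parental ES was 0.48 (standard error 0.56, 95% interval -0.61 to 1.57, adjusted p = 1.00). It was 0.60 between HoxA9-Ct ES and parental ES (standard error 0.64, 95% interval -0.66 to 1.86, limma adjusted p = 1.00). It was -0.12 between the clones and HoxA9-Ct ES (standard error 0.56, limma adjusted p = 1.00), and without clone #1 it had the opposite sign, at 0.07. Probes with 10 spots at about the Msx1 level had a median SD between spots of 0.25 to 0.38 on the log2 scale.
Msx1 and Msx3 share the pattern of a signal well above background in the 3 transgenic lines and not in parental ES, which 0.655% of all probes have (364 of 55562). Of Msx1 and Msx2, limma called 0 in any of the 3 comparisons, both at an adjusted p of 0.05 and at an unadjusted p of 0.05. Over all 55562 probes, the share that limma called for the clones against parental ES was 0.781% upward and 0.625% downward. For HoxA9-Ct ES against parental ES it was 0.216% upward and 0.189% downward, and for the clones against HoxA9-Ct ES 0.673% upward and 0.688% downward. The clones are the only group with more than 1 array, so the fit has 1 residual degree of freedom and parental ES and HoxA9-Ct ES are taken to vary like the clones. All calls given here, those of list and marker genes included, ended under at least 3 of the 9 alternatives (quantile normalization, a fit to detected probes alone, and the median pixel less background), where limma called 0 of all probes.

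Among all probes, the Msx3 ratio to parental ES ranked 24 in clone #1 and 32 in clone #9, and it was the highest of all 55562 in HoxA9-Ct ES. The probes with a measured ratio of more than 10 to parental ES in all 3 transgenic lines were 2 (0.0036% of those tested), namely Msx3 and a probe of Hoxb3, an anterior gene of the Hox-B cluster, the latter named after its values were seen. Both were dim in parental ES, and as lower bounds the Hoxb3 folds given further on stay under 10 in every line. Since Msx3 was chosen on these ratios, the ranks describe the choice and support nothing.

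**Figure D2:**
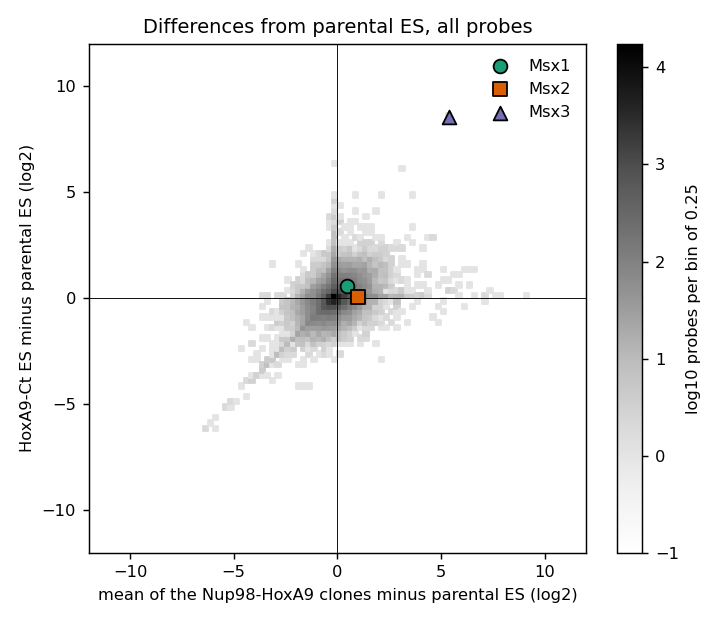
Log2 difference from parental ES of the mean of the Nup98-HoxA9 clones (x axis) and of HoxA9-Ct ES (y axis) for all 55562 probes, as the number of probes per square of 0.25 (grey), with the probes of Msx1, Msx2 and Msx3 marked. Both axes share the parental array; Msx3, at 5.41 and 8.54, stands away from the other probes, and Msx1 (0.48 and 0.60) and Msx2 (0.98 and 0.06) lie among them.

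The Msx3 spot lies in row 198 of the 384 rows of spots and in column 161 of 164. The 13 other spots within 1 row and 2 columns of it, control spots left out, had log2 ratios to parental ES between -2.02 and 0.74 in clone #1, between -1.36 and 1.27 in clone #9 and between -0.93 and 1.20 in HoxA9-Ct ES. On each array 7 of the 13 spots were well above background, so dim spots widen these ranges. The Msx3 ratios of 5.26, 5.55 and 8.54 lie outside them, which follows from the choice of Msx3 on its ratios. A local fault of the arrays was not tested. Spot rows are given because probes much brighter on 1 array than on all others were gathered in the last eighth of the rows (row 337 onwards): of single-spot probes more than 10-fold brighter there than on each of the other arrays, these rows held 19 of 24 on the parental array, 34 of 54 for clone #1, 18 of 42 for clone #9 and 10 of 23 for HoxA9-Ct ES, while they hold 12.3% of all single-spot probes. The spots of Msx1 (row 86), Msx2 (row 308) and Msx3 lie outside these rows.
Among the other 363 probes well above background in the 3 transgenic lines and not in parental ES, those most like Msx3 were ranked by the Euclidean distance between their 3 log2 ratios to parental ES. The nearest was the Hoxb3 probe, at a distance of 4.50. Its log2 ratios were 4.83 in HoxA9-Ct ES, 3.89 in clone #1 and 3.41 in clone #9, and its lower bounds were 7.58-fold in HoxA9-Ct ES, 3.96-fold in clone #1 and 2.84-fold in clone #9. The spot of this probe lies in row 382, within the last eighth of the rows, and a second probe of Hoxb3 was dim in every line. After it came Slc6a12, a transporter of betaine and GABA, at a distance of 5.75, with at least 6.32-fold in HoxA9-Ct ES, at least 4.33-fold in clone #1 and at least 10.07-fold in clone #9. Cst13, a member of the cystatin family of protease inhibitors, followed at 5.78. The last of the 5 were a probe that the array annotation names by the region chr5:149751979-149808240 (build mm9), at 6.29, and a probe of Xlr3b, a member of the X-linked Xlr family whose copies are close to each other in sequence, at 6.33. At this probe, Xlr3b in clone #9 was at least 77.2-fold above parental ES, against at least 5.77-fold in clone #1. A brighter probe of Xlr3b was well above background in all 4 lines, parental ES included, and so was not ranked. Its log2 ratios were 2.85 in HoxA9-Ct ES, 2.72 in clone #1 and 6.40 in clone #9. Of the 5, the Hoxb3 probe alone had, like Msx3, its highest ratio in HoxA9-Ct ES. A probe left out of this ranking because it was well above background in parental ES too, named ENSMUST00000030994 in the array annotation and picked after its values were seen, lay nearer to Msx3 than all 5. Its distance was 4.10, with log2 ratios of 6.06 in HoxA9-Ct ES, 2.96 in clone #1 and 3.24 in clone #9.

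Msx3 lies on chromosome 7, Msx1 on chromosome 5 and Msx2 on chromosome 13. The 5 genes with a probe on each side of Msx3, in RefSeq order, were read to describe whether the genes around Msx3 had a like pattern. On one side, Zfp511, Tubgcp2, Adam8, Spef1l and Utf1 were well above background in all lines and had log2 ratios to parental ES between -0.60 and 0.54. Utf1, a transcription factor of pluripotent cells, had -0.12 in HoxA9-Ct ES, -0.17 in clone #1 and -0.60 in clone #9. Caly, Fuom, Echs1 and Paox, on the other side, had ratios between -0.36 and 0.61 and were also well above background in all lines. Prap1, the gene next to Caly, was dim (not well above background) in parental ES as in HoxA9-Ct ES, and for the mean of the clones it was at least 3.07-fold above parental ES. Its log2 ratios were -0.04 in HoxA9-Ct ES, 1.87 in clone #1 and 3.57 in clone #9, and the rise in the clones was called by limma (2.72, standard error 0.56, adjusted p = 0.00024). Of the 10 neighbours, limma called 1 higher in the clones than in parental ES and 0 in HoxA9-Ct ES against parental ES. Of all probes it called 0.781% higher in the clones and, in HoxA9-Ct ES, 0.216% higher and 0.189% lower. Adam8, Tubgcp2 and Fuom had ratios above 0 in all 3 transgenic lines, with the smallest of their 3 ratios at 0.10, 0.09 and 0.10.

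**Figure D3:**
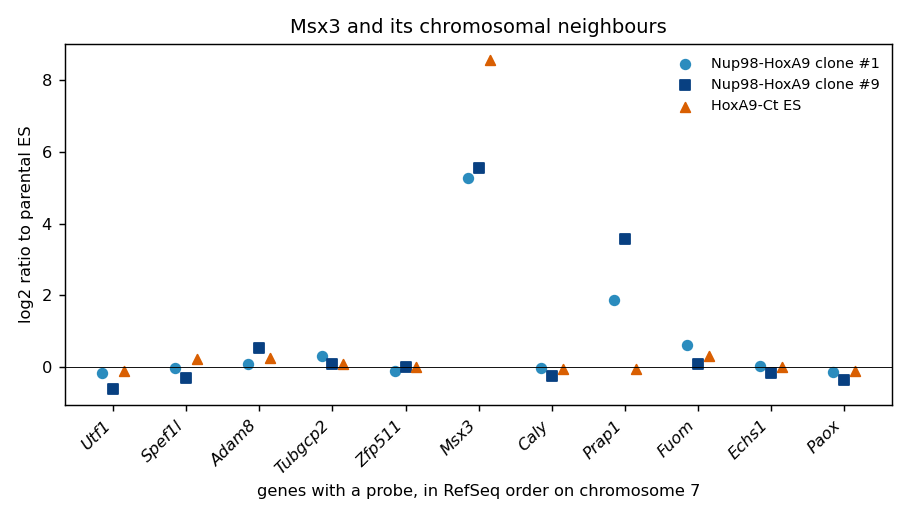
Log2 ratio to parental ES of Msx3 and of the 5 genes with a probe on each side of it on chromosome 7, in RefSeq order (not to scale), for each transgenic line, 1 array each. The ratios of 9 of the 10 neighbours lie between -0.60 and 0.61, Prap1 is higher in both Nup98-HoxA9 clones, and Msx3 is higher in all 3 lines.

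Genes of the BMP pathway were read to describe the signal that Msx1 and Msx2 are known to respond to. Of 43 listed genes, 42 had a probe (Grem1 had none), and 24 were well above background in all 4 lines. Limma called 0 of the 42 higher and 1 lower in the clones than in parental ES. The same gene, Bmpr1b, was the 1 of 42 called lower in HoxA9-Ct ES, and 0 were called higher. The shares of all probes called higher and lower were 0.781% and 0.625% in the clones and 0.216% and 0.189% in HoxA9-Ct ES. The median difference of the 42 genes was 0.00 between the clones and parental ES and 0.05 between HoxA9-Ct ES and parental ES, against -0.18 and 0.06 over all probes.
Among the ligands, 6 of 14 were not well above background in any line, and 0 were called against parental ES in limma. Bmp7, a ligand well above background in all lines, had log2 ratios of 0.26 in HoxA9-Ct ES, 1.11 in clone #1 and 1.45 in clone #9, and the difference between the clones and parental ES was not called (1.28, limma adjusted p = 0.48). Bmp8b was 1.02 higher in the clones than in parental ES (limma adjusted p = 0.93). Bmp2 was well above background in clone #9 alone, at least 1.31-fold above parental ES. Limma called Bmp2 higher in the clones than in HoxA9-Ct ES (1.95, adjusted p = 0.038), a call that held in 1 of 9 alternative processings.
Of the 7 receptors, 6 were well above background in all lines. Bmpr1b, a type I receptor, was well above background in parental ES alone, with log2 levels of -1.84 in parental ES, -4.22 in HoxA9-Ct ES, -6.36 in clone #1 and -6.61 in clone #9. Parental ES was at least 6.43-fold higher than the mean of the clones (limma adjusted p = 8.8e-14, held in 6 of 9 alternatives) and at least 5.23-fold higher than HoxA9-Ct ES (limma adjusted p = 0.0499, held in 2 of 9 alternatives). The Bmpr1b spot lies in row 372, within the last eighth of the rows, and the second probe of the gene was dim in every line. Acvrl1, a type I receptor of endothelial cells, had log2 ratios of 0.40 in HoxA9-Ct ES, 1.33 in clone #1 and 1.60 in clone #9 and was not called in the clones (limma adjusted p = 0.27). Acvr1, also a type I receptor, was 0.64 higher in the clones (limma adjusted p = 1.00).
Of the Smads that carry the signal, Smad1 was 0.78 higher in the clones than in parental ES and Smad4 0.10 lower, and 0 of 4 were called by limma. Of the inhibitors, 0 of 13 were called. Smad6, which blocks the receptors from inside the cell, was 0.99 higher in the clones than in parental ES and 1.58 higher than in HoxA9-Ct ES (limma adjusted p = 1.00 and 0.18). Nbl1, a secreted BMP antagonist, was 0.65 higher in the clones than in parental ES (limma adjusted p = 1.00).
Id1 to Id4 encode inhibitors of bHLH transcription factors, and like Msx1 and Msx2 they are known BMP targets. All 4 were well above background in all lines, and 0 of 4 were called by limma. Id2 had log2 ratios to parental ES of -0.07 in HoxA9-Ct ES, -1.07 in clone #1 and -0.67 in clone #9, and Id3 had 0.07, -0.50 and -0.29 in the same order. Id1 had -0.31, 0.84 and 0.13 and Id4 -0.15, 0.30 and -0.11, so that the 4 genes did not share a direction in the clones.

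**Figure D4:**
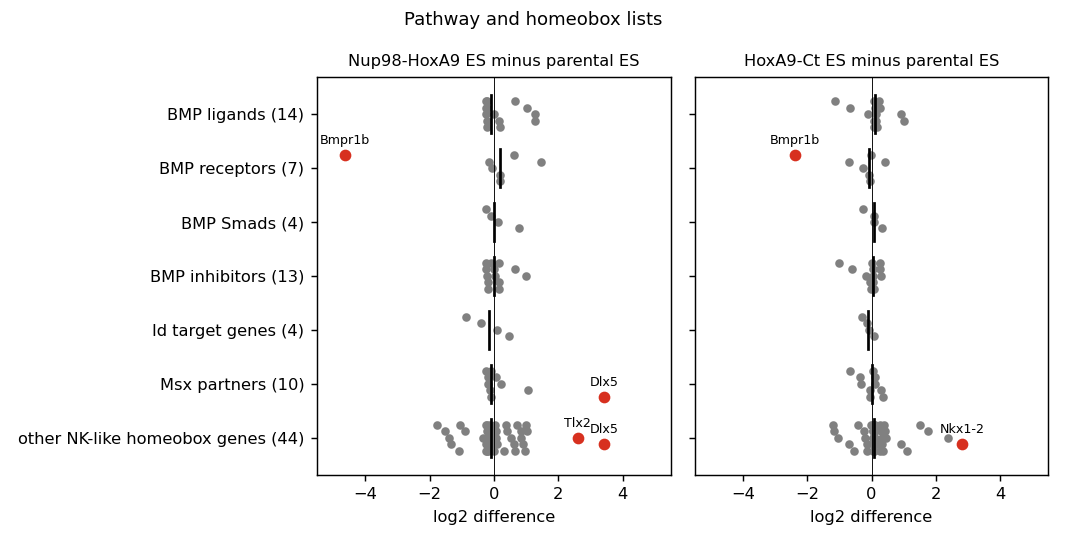
Log2 difference from parental ES of Nup98-HoxA9 ES (mean of 2 clones, left) and HoxA9-Ct ES (1 array, right) for the genes of each list, with the number of genes measured in parentheses; each point is a gene at its brightest probe, red points were called by limma at an adjusted p of 0.05 and black bars are medians. All of the BMP lists have medians between -0.15 and 0.18, and Bmpr1b, Dlx5, Tlx2 and Nkx1-2 are the genes called; Dlx5 stands in 2 lists.

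Proteins known to bind Msx proteins or to act with them were read as a further list. Of the 10, 6 were well above background in all 4 lines. Limma called 1 of the 10 higher in the clones than in parental ES, 0 lower, and 0 in HoxA9-Ct ES against parental ES. The shares of all probes were 0.781% higher and 0.625% lower in the clones, and 0.216% and 0.189% in HoxA9-Ct ES. The gene called was Dlx5, a homeodomain protein that binds the same sites as Msx proteins and can pair with them. Its log2 levels were -6.18 in parental ES, -5.89 in HoxA9-Ct ES, -4.96 in clone #1 and -0.54 in clone #9. Dlx5 was well above background in clone #9 alone, at least 13.3-fold above parental ES, so that the call (3.43, limma adjusted p = 3.4e-07, held in 3 of 9 alternatives) rests on clone #9. Without clone #9 the difference from parental ES was 1.22, between values that were both not well above background. The Dlx5 spot lies in row 351, within the last eighth of the rows. Ehmt2, a histone H3K9 methyltransferase, had a difference of -0.25 between the clones and parental ES, and Tle4, a Groucho corepressor, had -0.12 (limma adjusted p = 1.00 for both).
The list of other NK-like homeobox genes is the class that Msx belongs to, and it shows whether these genes had the Msx3 pattern. Of 45 genes 44 had a probe, and 21 of the 44 were not well above background in any line. Against parental ES, limma called 2 of 44 up and 0 down in the clones, and 1 up and 0 down in HoxA9-Ct ES. The shares of all probes called up and down were 0.781% and 0.625% in the clones and 0.216% and 0.189% in HoxA9-Ct ES. The gene other than Dlx5 called in the clones was Tlx2, a homeobox gene of neural crest-derived neurons. Tlx2 was well above background in all lines, with log2 levels of -3.995 in parental ES, -3.67 in HoxA9-Ct ES, -2.25 in clone #1 and -0.54 in clone #9. Its difference between the clones and parental ES was 2.60 (standard error 0.56, limma adjusted p = 0.00058, 5 of 9 alternatives), and the parental value lay just above the limit of that array (-4.28). The gene called in HoxA9-Ct ES was Nkx1-2, a gene of the caudal epiblast and tail bud. HoxA9-Ct ES was at least 4.30-fold above parental ES for this gene (limma adjusted p = 0.0051, 4 of 9 alternatives), and the log2 ratio was 1.05 for clone #1 and 0.63 for clone #9. Both other probes of Nkx1-2 were dim in every line.
Between Nup98-HoxA9 ES and HoxA9-Ct ES, limma called Dlx5 and Tlx2 higher and Nkx1-2 and Nkx6-3 lower in the clones, 2 and 2 of 44. The shares of all probes called in this comparison were 0.673% higher and 0.688% lower. Nkx6-3 had log2 levels of 1.07 in parental ES, 1.99 in HoxA9-Ct ES, -0.05 in clone #1 and -1.34 in clone #9. It was 6.41-fold higher in HoxA9-Ct ES than in the mean of the clones (limma adjusted p = 0.00034), and the second probe of Nkx6-3, in row 383, gave a difference of -1.95 (limma adjusted p = 0.037). Like Msx3, Nkx1-2 and Nkx6-3 had their highest values in HoxA9-Ct ES. The same order was seen in uncalled genes of the list, among them Dlx3, Nkx2-2, Barhl1 and Barx2, so it is not particular to them. At its brightest probe, Nkx1-2 was also, like Msx3, well above background in all transgenic lines and not in parental ES. Unlike Msx3, Nkx6-3 was lower in the clones than in parental ES, though not called (limma adjusted p = 0.089).

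The labelled cell type and other cell types that an ES culture can hold were read from marker genes. All 10 pluripotency markers, among them Pou5f1 (Oct4), Sox2 and Esrrb, were well above background in all 4 lines, and 0 were called in any comparison by limma. Over all probes, limma called 0.781% higher and 0.625% lower in the clones than in parental ES. These shares were 0.216% and 0.189% for HoxA9-Ct ES against parental ES, and 0.673% and 0.688% for the clones against HoxA9-Ct ES. Of 13 markers of the dorsal neural tube, the region Msx3 is known from, 6 were not well above background in any line, among them the defining genes Pax3, Pax7, Atoh1 and Wnt3a. The number well above background was 6 in each of the 4 lines, where Msx3 was in 3, and limma called 0 of 13. Their summed level (log2) was 2.24 in parental ES, 1.93 in HoxA9-Ct ES, 2.16 in clone #1 and 2.56 in clone #9. Of 8 neural crest markers limma called 0 as well, and their summed level was 1.87 in parental ES, 1.95 in HoxA9-Ct ES, 1.62 in clone #1 and 1.46 in clone #9. Such sums weigh the brightest genes most, here Foxd3 (1.49 in parental ES) and, in the dorsal neural tube list, Zic2 (1.23).
Markers of primitive endoderm, a cell type that arises in ES cultures, were higher in the lines in which Msx2 was higher. Limma called 3 of the 7 higher in the clones than in parental ES (Gata6, Sox17 and Pdgfra) and 6 of 7 higher than in HoxA9-Ct ES (these and Gata4, Dab2 and Foxa2), and Sox17 as the 1 lower in HoxA9-Ct ES relative to parental ES. This last call held in 3 of 9 alternatives, and the second Sox17 probe had a difference of -1.20 there and was not called (limma adjusted p = 1.00). The shares of all probes called higher were 0.781% in the clones against parental ES and 0.673% in the clones against HoxA9-Ct ES. In HoxA9-Ct ES against parental ES, 0.216% of all probes were called higher and 0.189% lower. Against parental ES, the calls in the clones held in 5 of 9 alternatives for Gata6, 4 for Sox17 and 6 for Pdgfra. Gata6, a transcription factor that specifies primitive endoderm, was 5.21-fold higher in the clones than in parental ES (limma adjusted p = 0.0028). The summed level of the 7 markers (log2) was 0.18 in parental ES, -0.88 in HoxA9-Ct ES, 1.96 in clone #1 and 2.29 in clone #9. Of 6 trophectoderm markers limma called 3 higher in the clones than in parental ES (Cdx2, Elf5 and Krt8) and 0 in HoxA9-Ct ES. Elf5 was well above background in clone #1 alone. The calls held in 3 of 9 alternatives for Cdx2, 2 for Elf5 and 5 for Krt8, and the spots of Krt8 and of the endoderm marker Foxa2 lie in the last eighth of the rows. The summed trophectoderm level was 3.74 in parental ES, 3.58 in HoxA9-Ct ES, 4.44 in clone #1 and 5.27 in clone #9. Most of this sum comes from the bright genes Krt18 and Tfap2c, which limma did not call, and little from Cdx2 and Elf5. Of 8 markers of the primitive streak and early mesoderm limma called 0 against parental ES and 1, Hand1, higher in the clones than in HoxA9-Ct ES. Hand1 was well above background in clone #9 alone, and the call held in 2 of 9 alternatives. The part of these cell types in the Msx2 and Msx3 values was not tested.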

How the data were processed

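The authors scanned 4 arrays (1 slide, 1 scan) and extracted the images with Feature Extraction 10.10.1.1. The deposited files give the processed signal and the median pixel as intensity, with flags. The deposited series matrix holds these intensity values times 1 constant per array and served as an alternative. No array column was left unmapped.

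Control spots were left out, log2 of the processed signal was taken less the 75th percentile of the array, and spots of a probe were averaged without outliers (143 to 201 spots per array). The fit used limma 3.58.1 under R 4.3.3 (3 groups, 55562 probes, Benjamini-Hochberg adjusted p of 0.05), after a test on simulated data. The prior degrees of freedom were infinite (prior SD 0.45), so all probes share 1 standard error per contrast. The share of spots well above background was 49.9% to 53.0%. With 4 arrays, their number limits the precision.

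Symbols came from RefSeq accessions, for 26762 of 55681 probes. The table is on GRCm38.p6 and the array annotation on mm9, so the table gave symbols, chromosomes, gene order and promoter sequences. Each gene was read at its brightest probe, except that the probes most like Msx3 were ranked as single probes. The genes named from a list are those called by limma and, where fewer than 2 were called, the 2 with the largest mean ratio in size among members well above background on all arrays. The other genes named are the 5 neighbours with a probe on each side of Msx3, the 5 probes most like it and marker genes of cell types. The members and lists were chosen with earlier results of these data known. Python 3.11.15, numpy 2.4.6 and pandas 2.3.3 made the tables.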

Additional observations from a re-analysis of the deposited data

How the results depend on the processing

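The values were recomputed with the median of each array, quantile normalization, and a floor at each array's dimmest signal well above background. Further settings were probes detected (well above background) on 1 array or more, the series matrix, outlier spots kept and the median pixel less background. The last were trend and robust options, and leaving out each clone in turn. Normexp was run on the median pixel with an offset of 50, chosen after seeing the data. Reading each probe of a gene gives no alternative for Msx genes with 1 probe.

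Msx1 and Msx2 stayed uncalled throughout. Their differences kept their sign in 60 of 62 recomputations, the exceptions being Msx2 in HoxA9-Ct ES against parental ES with the median of each array (-0.0056) and Msx1 in the clones against HoxA9-Ct ES without clone #1 (0.070). The 62 include settings that return the same differences and could not change a sign (detected probes, outlier spots kept, and trend and robust). Msx2 in the clones against parental ES ranged from 0.60 to 1.14. Leaving out a clone gave 0.30 to 0.67 (Msx1) and 0.81 to 1.14 (Msx2) against parental ES, -0.30 to 0.070 and 0.75 to 1.08 against HoxA9-Ct ES, and 5.26 to 5.55 for the Msx3 ratio, with no test.

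The Msx3 ratios of 5.41 (clones) and 8.54 (HoxA9-Ct ES) became 2.25 and 5.08 with normexp, 4.70 and 7.84 with the floor, and 4.13 and 7.25 with the median pixel. The other alternatives moved them by less than the SD between the clones (0.21).

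Counts of limma calls were 781 (clones against parental ES), 225 (HoxA9-Ct ES against parental ES) and 756 (clones against HoxA9-Ct ES). They were 0, 0 and 0 with quantile normalization (5104, 4185 and 5394 at an unadjusted p of 0.05), with probes detected on 1 array or more (2224, 992 and 2136) and with the median pixel (3436, 3120 and 3934). They were 140, 18 and 133 with the series matrix. Trend and robust gave 1243 and 1284 for the comparisons of the clones, and HoxA9-Ct ES against parental ES had 68 with normexp and 125 with the floor. Calls of list genes thus fell to 0 under 3 alternatives, as did all others. No paired analysis was possible because the labels give no pairing of the arrays, and parental ES and HoxA9-Ct ES have 1 array each. The cause of these changes was not tested.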
